A study of Mus musculus with 8 samples.

Results

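Acute-phase proteins are plasma proteins whose synthesis changes with infection, injury or a growing tumor. Hepatocytes make most of them, and cytokines of the Il6 and Il1 families drive their genes through STAT3, NF-kB and C/EBP factors, with glucocorticoids adding to the response. The serum amyloid A proteins, haptoglobin, the orosomucoids, serum amyloid P and lipocalin 2 are positive acute-phase proteins, which means that their amount in plasma goes up.

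Here the transcripts of 10 such proteins were followed through every library of the series. They are Saa1, Saa2, Saa3 and Saa4 (serum amyloid A), Hp (haptoglobin), Orm1, Orm2 and Orm3 (orosomucoids, or alpha acid glycoproteins), Apcs (serum amyloid P) and Lcn2 (lipocalin 2). The 10 genes are rows of a table of 55487 genes, and all 10 were among the 14353 genes with enough counts for the comparison of the labels. They were selected on their measured levels, which differ between libraries of the same label, so the differences between single libraries are given as a description and without a test.

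The authors describe the RNA as coming from the stromal vascular fraction of subcutaneous MC38 tumors. MC38 is a mouse colorectal cancer line, here with a GFP label. By label, 4 libraries came from Bmal1+/+ and 4 from Bmal1-/- mice. Bmal1 is the clock transcription factor also named Arntl, and the label refers to deletion in all cells of the host, bred from heterozygous founders, while the implanted cancer cells kept the gene. By this account all mice carried the same tumor, and tumor cells were removed by sorting on GFP. The age and sex of the mice and the hour of collection are not given in the sources used here.

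Library totals lay from 14054825 to 18449143 counts, and 3 counts, used as the detection floor, correspond to 0.163 to 0.213 CPM (counts of a gene per 1000000 counts of the library). This floor covers counting error only. The counts of Bmal1 went against the label, with 0.96 to 2.71 normalized CPM in Bmal1+/+ libraries and 30.1 to 35.0 in the others, which are therefore called the libraries labelled Bmal1-/-. Counts per gene do not show which exons were read, so whether the Bmal1 transcript was intact was not tested. Xist was between 844 and 1095 CPM in Bmal1+/+ libraries and at most 0.749 CPM in the libraries labelled Bmal1-/-. Ddx3y, Kdm5d, Uty and Eif2s3y had 0 counts in the former and were counted in each of the latter. By these transcripts the Bmal1+/+ libraries were female and the others male. Label and sex therefore cannot be told apart, here or in any comparison of the labels below. Markers of fibroblasts, endothelial cells and macrophages, taken as sums, were counted in every library. These sums were 122 to 252 CPM for 12 fibroblast, 193 to 327 CPM for 7 endothelial and 342 to 977 CPM for 12 macrophage and Kupffer cell genes. Single levels were uneven, with Dcn (71.6 to 149 CPM) and the Kupffer cell marker Clec4f (85.9 to 203 CPM) among the higher ones. Of the fibroblast markers, Col1a1 was at most 5.68 CPM, Acta2 at most 2.75 CPM, Fap at most 0.39 CPM and Pdpn without a count. The leukocyte gene Ptprc was at most 24.1 CPM. The 12 hepatocyte markers together had 96110 to 110060 CPM in Bmal1+/+ libraries and 50241 to 66373 CPM in the libraries labelled Bmal1-/-. Alb was the highest of them, with 64320 to 71870 CPM in Bmal1+/+ libraries and 12740 to 18830 CPM in the others. In the comparison of the labels below, Alb alone of the 12 was lower in the libraries labelled Bmal1-/-. Apoa1 and Serpina1a were higher there, so the lower sum reflects Alb and not the markers as a set. In every library this sum was far above those of the fibroblast, endothelial and macrophage genes, which goes against the label of a tumor stromal fraction. Where the hepatocyte transcripts came from was not tested. In bulk RNA, fewer cells of a type and less RNA per cell cannot be told apart.

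One library stood apart from the rest of its label in these 10 genes, the library labelled Bmal1-/- replicate 4. All 10 transcripts had their highest level of the 8 libraries there, as did 14.5% of all genes tested. Together the 10 genes took 3.67% of its counts (95% Wilson interval 3.66 to 3.68, which covers counting error only), against 0.205% to 0.443% in the other 7 libraries. In 9 of the 10, this library was at least 2-fold above the highest of the other 3 of its label, and the exception was Saa4. Of all 14353 genes, 2.19% stood above in this way and 1.9% stood at least 2-fold below the lowest of the other 3. In no other library did any of the 10 genes stand above or below by that measure. The total of this library, 15060098 counts, lay within the range of the others, and its share of mitochondrial counts was 4.22% against 5.01% to 8.63%.

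**Figure D1:**
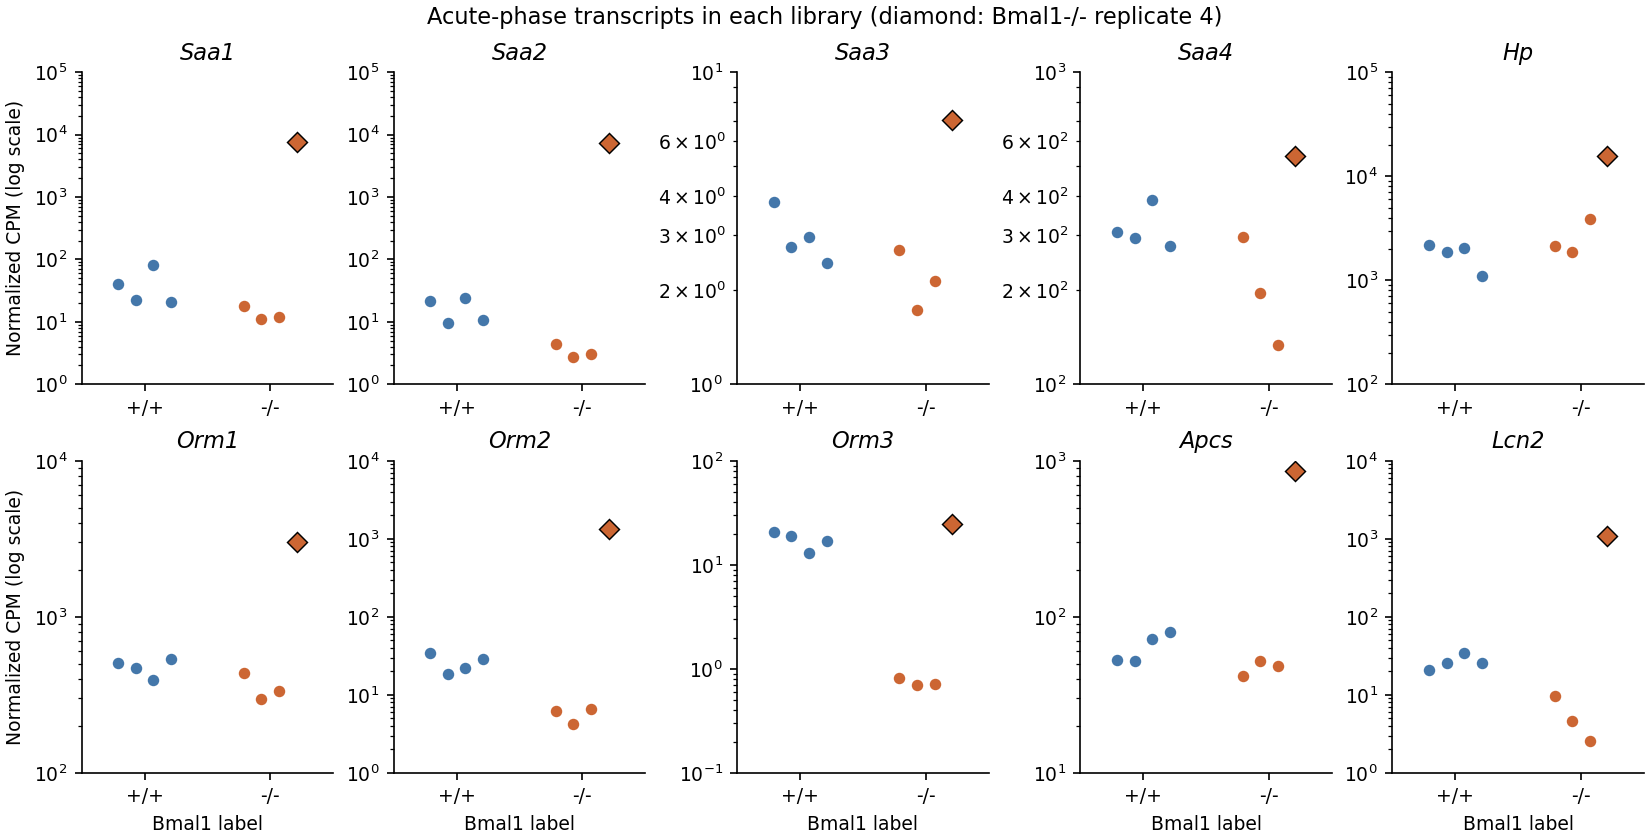
Normalized CPM (log axis, with its own range in each panel) of the 10 acute-phase genes in each of 4 Bmal1+/+ libraries (blue) and 4 libraries labelled Bmal1-/- (orange), with replicates 1 to 4 from left to right. The diamond is replicate 4 of the libraries labelled Bmal1-/-, which is the highest point in every panel, from 7.05 CPM for Saa3 to 15580.3 CPM for Hp.

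Saa1 and Saa2 are the major inducible serum amyloid A proteins of mouse liver and travel in plasma on high-density lipoprotein. Saa1 had 40.5, 22.8, 80.3 and 20.4 CPM in Bmal1+/+ replicates 1 to 4. Its levels were 17.7, 10.9, 12.03 and 7751 CPM in the libraries labelled Bmal1-/- in the same order. Saa2 had 21.4, 9.41, 24.3 and 10.7 CPM in the former and 4.496, 2.70, 3.06 and 7317 CPM in the latter. Among Bmal1+/+ libraries replicates 1 and 3 were the higher ones for both genes, and replicates 1 to 3 of the libraries labelled Bmal1-/- all lay below every Bmal1+/+ library. Replicate 4 was 644-fold above the median of the other 3 for Saa1 and 2385-fold for Saa2, on the CPM scale. It also exceeded the highest Bmal1+/+ library 96.5-fold for Saa1 and 302-fold for Saa2. By the excess over the highest other library of the label, Saa2 and Saa1 ranked 1 and 2 of the 14353 genes.

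Saa3 and Saa4, which lie in the same gene cluster, moved far less. Saa3, an inducible form made largely outside hepatocytes, had 3.85, 2.75, 2.96 and 2.45 CPM in Bmal1+/+ libraries and 2.69, 1.73, 2.14 and 7.05 CPM in the libraries labelled Bmal1-/-. With 25 to 104 counts per library it was the lowest of the 10 per length in 7 of the 8 libraries, on the FPKM scale (fragments per 1000 bases of transcript and 1000000 fragments of the library). Saa4, the constitutive serum amyloid A, had 307, 294, 390 and 278 CPM and 296, 195, 133 and 539 CPM in the same order. Replicate 4 was 1.82-fold above the highest of the other 3 of its label for Saa4 and 1.38-fold above the highest Bmal1+/+ library. Replicate 3 of the libraries labelled Bmal1-/- had the lowest Saa4 level of all 8.

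Haptoglobin binds free hemoglobin in plasma. Hp had 2183, 1852, 2035 and 1108 CPM in Bmal1+/+ libraries and 2151, 1849, 3884 and 15580.3 CPM in the libraries labelled Bmal1-/-. Its mean over replicates 1 to 3 of the libraries labelled Bmal1-/- was 2628 ± 1098 CPM (SD, n = 3). That of Bmal1+/+ libraries was 1794.5 ± 477 CPM (SD, n = 4), while in the other 9 genes the mean of these 3 was the lower one. Replicate 3, at 3884 CPM, lay above every Bmal1+/+ library. In replicate 4 its FPKM of 6421.5 ranked 3 among all genes of the table.

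The orosomucoids are plasma proteins that bind lipids and many drugs. Orm1 had 509, 467, 396 and 538 CPM in Bmal1+/+ libraries and 437, 298, 336 and 3030 CPM in the libraries labelled Bmal1-/-. Orm2 had 34.6, 18.2, 22.1 and 28.4 CPM and 6.12, 4.22, 6.55 and 1351 CPM in the same order. Orm3 had 20.8, 18.9, 13.0 and 16.98 CPM and 0.812, 0.693, 0.712 and 24.5 CPM. The ranges of Orm2 and Orm3 in replicates 1 to 3 lay wholly below the Bmal1+/+ ranges, and that of Orm1 overlapped. Replicate 4 was 9.03-fold above the median of the other 3 for Orm1, 220.5-fold for Orm2 and 34.0-fold for Orm3. For Orm3, which had between 10 and 13 counts in replicates 1 to 3, replicate 4 came to 1.18-fold of the highest Bmal1+/+ library, so its level there was close to the Bmal1+/+ range.

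Serum amyloid P is a pentraxin that binds amyloid fibrils and chromatin. Apcs had 52.7, 52.4, 71.7 and 79.7 CPM in Bmal1+/+ libraries and 41.7, 52.2, 48.5 and 857 CPM in the libraries labelled Bmal1-/-. Lipocalin 2 takes up bacterial siderophores and is made by hepatocytes and neutrophils. Lcn2 had 20.9, 25.2, 34.1 and 25.7 CPM and 9.55, 4.64, 2.56 and 1073 CPM in the same order. Replicate 4 was 17.7-fold above the median of the other 3 for Apcs and 230.8-fold for Lcn2. Among replicates 1 to 3 of the libraries labelled Bmal1-/-, Lcn2 differed 3.73-fold between the highest and the lowest library, the widest of the 10, and Orm3 1.17-fold, the narrowest. Among Bmal1+/+ libraries Saa1 had the widest range, 3.93-fold, and Orm1 the narrowest, 1.36-fold.

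**Figure D2:**
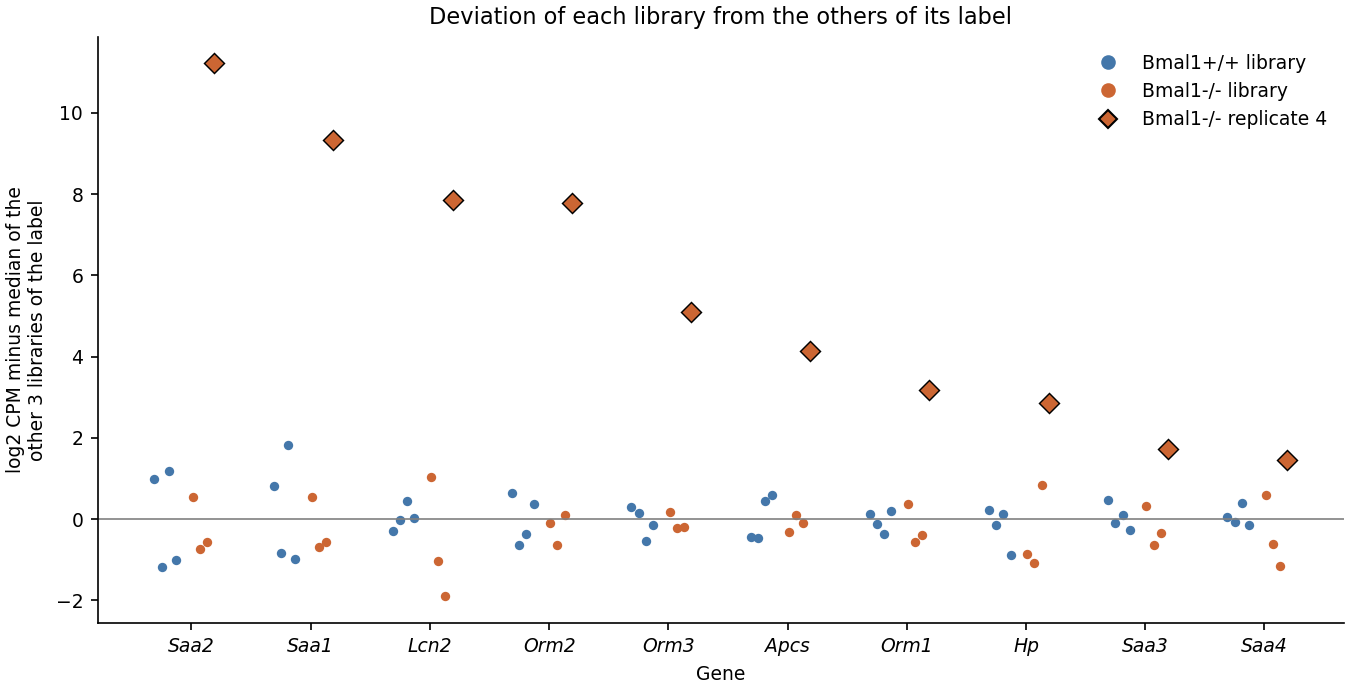
For each gene, log2 CPM of each library minus the median of the other 3 libraries of its label, with genes ordered by the value in replicate 4 of the libraries labelled Bmal1-/- (diamond). That library ranges from 1.47 for Saa4 to 11.22 for Saa2, and the other 7 libraries are plotted as circles.

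Compared per length, the order of the transcripts changed with the library. In Bmal1+/+ libraries Hp (454 to 925 FPKM) and Orm1 (514 to 675 FPKM) were the highest and overlapped each other. Saa4 followed with 129 to 187 FPKM and Apcs with 52.3 to 79.9 FPKM, each separate from its neighbours. Orm2 (22.8 to 45.0 FPKM) and Orm3 (16.98 to 27.1 FPKM) overlapped. Saa1 (6.51 to 26.5 FPKM) overlapped Orm2 and Orm3 and also Lcn2 (4.32 to 7.06 FPKM) and Saa2 (2.56 to 6.86 FPKM). Lcn2 and Saa2 overlapped each other. Saa3 was lowest, with 0.780 to 1.27 FPKM. In replicate 4 of the libraries labelled Bmal1-/- the order was Hp, Orm1 with 3827.5 FPKM, Saa1 with 2483.5 FPKM, Saa2 with 2013 FPKM, Orm2 with 1706 FPKM, Apcs with 864 FPKM, Saa4 with 252 FPKM, Lcn2 with 216 FPKM, Orm3 with 31.0 FPKM and Saa3 with 2.26 FPKM. Saa1 and Saa2 thus passed Saa4 in this library alone, and ranked 31 and 37 of all genes by FPKM.

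The make-up of both families differed in this library as well. Saa4 made 84.5% to 92.7% of the summed FPKM of the serum amyloid A family in Bmal1+/+ libraries and at least 92.1% in replicates 1 to 3 of the libraries labelled Bmal1-/-, but 5.31% in replicate 4, where Saa1 had 52.3% and Saa2 42.4%. Per length, Saa1 exceeded Saa2 by 2.21-fold to 3.86-fold in Bmal1+/+ libraries, 4.58-fold to 4.72-fold in replicates 1 to 3 and 1.23-fold in replicate 4. Orm1 made 90.2% to 92.6% of the summed FPKM of the orosomucoids in Bmal1+/+ libraries, 97.9% to 98.4% in replicates 1 to 3 and 68.8% in replicate 4. Orm2 was 0.964-fold to 1.69-fold of Orm3 in Bmal1+/+ libraries, 6.08-fold to 9.18-fold in replicates 1 to 3 and 55.0-fold in replicate 4. The ratio in replicates 1 to 3 rests on Orm3 counts of 10 to 13.

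**Figure D3:**
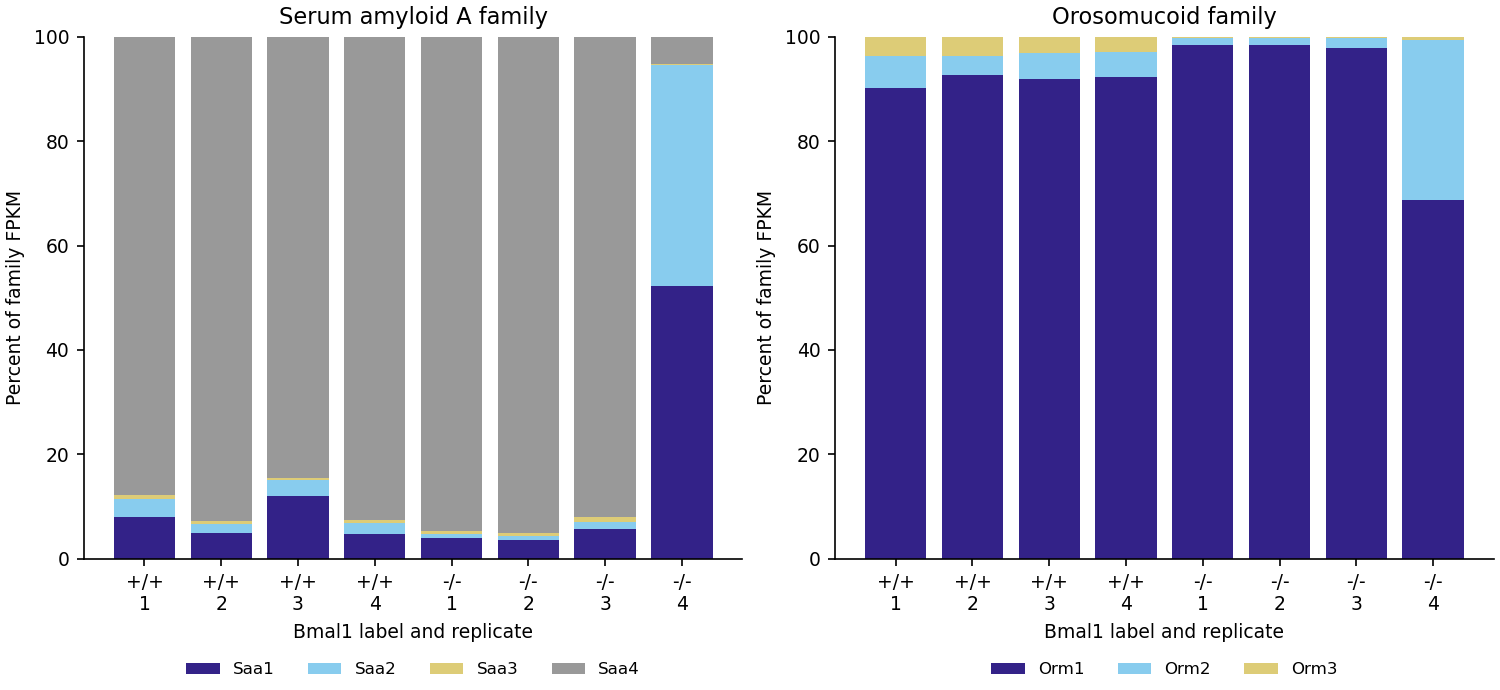
Share of each family member in the summed FPKM of the serum amyloid A family (left) and the orosomucoid family (right), in percent, for each of the 8 libraries by label and replicate. Saa4 and Orm1 fill most of the bar in 7 libraries, and in replicate 4 of the libraries labelled Bmal1-/- Saa1 with Saa2, and Orm2, take 94.7% and 30.7%.

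The 4 serum amyloid A genes lie within 42.3 kb of chromosome 7 and the 3 orosomucoid genes within 21.3 kb of chromosome 4, and no annotated gene overlaps any of the 10 (GRCm38, GENCODE). Hp lies on chromosome 8 from 109575128 to 109579172, Apcs on chromosome 1 from 172893961 to 172895041 and Lcn2 on chromosome 2 from 32384633 to 32388252. The transcripts of the paralogs are alike, and reads from stretches they share could be assigned to either. The longest coding transcripts of Saa1 and Saa2 were 87.3% identical, and 9.11% of the 50-base words of Saa1 also occurred in Saa2. Orm1 and Orm2 were 91.0% identical with 20.4% of words shared, and Orm2 and Orm3 were 88.3% identical with 3.58% shared. Saa3 and Saa4 shared no such word with Saa1 or Saa2. The split between Saa1 and Saa2 and among the orosomucoids is therefore less certain than their sums, which were 15615 CPM for the serum amyloid A family and 4405.8 CPM for the orosomucoids in replicate 4.

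The bases before the transcription start are shown for the neighbours with the most similar upstream sequence, Saa1 with Saa2 and Orm2 with Orm3, and for Saa4, the gene with the smallest deviation in replicate 4 (RefSeq, GRCm38.p6, each on the strand of its gene, 5′ to 3′). Capitals mark matches to the C/EBP motif TTGCNNAA on either strand.
Saa1, chr7:46742981-46743230, minus strand: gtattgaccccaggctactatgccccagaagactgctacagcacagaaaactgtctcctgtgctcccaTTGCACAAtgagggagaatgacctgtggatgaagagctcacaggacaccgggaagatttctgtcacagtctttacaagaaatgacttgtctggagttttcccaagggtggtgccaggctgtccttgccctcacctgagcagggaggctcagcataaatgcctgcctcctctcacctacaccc
Saa2, chr7:46751583-46751789, plus strand: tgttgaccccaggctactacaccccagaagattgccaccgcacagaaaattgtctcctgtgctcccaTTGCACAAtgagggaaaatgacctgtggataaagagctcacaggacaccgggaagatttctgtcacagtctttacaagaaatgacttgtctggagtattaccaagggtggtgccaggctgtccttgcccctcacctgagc
Saa4, chr7:46732604-46732853, minus strand: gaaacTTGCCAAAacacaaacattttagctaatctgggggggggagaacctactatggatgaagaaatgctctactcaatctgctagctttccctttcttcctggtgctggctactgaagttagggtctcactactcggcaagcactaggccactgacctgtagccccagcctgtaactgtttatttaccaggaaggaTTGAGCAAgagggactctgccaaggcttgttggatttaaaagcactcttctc
Orm2, chr4:63362199-63362448, plus strand: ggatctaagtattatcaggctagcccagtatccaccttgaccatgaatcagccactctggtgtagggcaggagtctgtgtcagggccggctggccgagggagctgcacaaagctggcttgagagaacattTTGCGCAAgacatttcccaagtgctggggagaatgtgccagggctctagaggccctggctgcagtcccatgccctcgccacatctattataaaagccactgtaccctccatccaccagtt
Orm3, chr4:63355908-63356157, plus strand: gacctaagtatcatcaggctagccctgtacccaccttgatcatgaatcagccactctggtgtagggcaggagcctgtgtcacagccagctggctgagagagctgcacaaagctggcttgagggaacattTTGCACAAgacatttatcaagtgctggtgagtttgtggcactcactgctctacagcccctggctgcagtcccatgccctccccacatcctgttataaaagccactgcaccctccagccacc
Positions are counted from the RefSeq start. The printed Saa2 sequence stops where the gene begins in GENCODE, 43 bases before that start. The 250 upstream bases of Saa1 and Saa2 were 94.8% identical and those of Orm2 and Orm3 85.9%, while every other pair among the 8 genes in the promoter table was between 45.7% and 54.9%. The C/EBP motif was found in 7 of these 8 genes (Saa1, Saa2, Saa3, Saa4, Orm2, Orm3 and Lcn2), and in 9.56% of all 32851 promoters over the same 250 bases. In Lcn2 all 250 of these bases lie inside the gene as annotated by GENCODE, and in Saa3 24 of them do. It began 182 bases before the start of Saa1, 183 before that of Saa2, 120 before that of Orm2 and 121 before that of Orm3, and Saa4 held 2 matches. The STAT motif TTCNNNGAA was found in Apcs alone (7.02% of all promoters), the E-box CACGTG, to which Bmal1 with its partner Clock binds, in none (6.02%), and the NF-kB consensus in none (3.9%). The motif AGGTCA of ROR and REV-ERB was found in Saa1, Saa2 and Saa4 (14.02%), and the glucocorticoid motif TGTTCT in Orm2 and Apcs (16.1%). A match of letters does not show that a factor binds, and its absence here concerns these bases only.

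The next comparison asked whether the 10 transcripts differed between the labels, using the same fit for all genes (quasi-likelihood test of edgeR, p adjusted by Benjamini and Hochberg over 14353 genes). With all 8 libraries none of the 10 passed the threshold of an adjusted p below 0.05, whereas 16.2% of all genes were lower and 14.9% higher in the libraries labelled Bmal1-/-. At an unadjusted p below 0.05 there were 3 of the 10, namely Saa1, Saa2 and Hp, against 42.3% of all genes. In the other tools limma-voom called 1, Orm3, and DESeq2 called none of the 3 genes to which it gave an adjusted p (Saa3, Saa4 and Hp). The fitted log2 fold change, libraries labelled Bmal1-/- minus Bmal1+/+, was 5.57 for Saa1 (standard error 2.11, adjusted p = 0.0714 by edgeR) and 6.80 for Saa2 (standard error 2.49, adjusted p = 0.0636 by edgeR). With limma-voom these were 0.90 for Saa1 and 0.61 for Saa2, and with the replicate number as a block they turned negative, at -0.55 and -1.14. In edgeR the log2 fold change was 1.71 for Hp (standard error 0.634) and 3.36 for Lcn2 (standard error 1.64). In all 10 genes the ranges of the 2 labels overlapped, whereas in 33.4% of all genes they did not. The mean level was 1948 ± 3869 CPM (SD, n = 4) for Saa1 in these libraries and 41.0 ± 27.7 CPM (SD, n = 4) in Bmal1+/+ libraries, and replicate 4 held 99.5% of the former sum.

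The 10 genes were selected on levels that include those of replicate 4, so the values without that library are given as a description and not as an independent test. Without replicate 4 the direction turned for Saa1, Saa2, Saa3, Orm1, Orm2, Apcs and Lcn2. In this fit of 4 Bmal1+/+ libraries against 3, 5 of the 10 genes had an adjusted p below 0.05 and were lower in the libraries labelled Bmal1-/-, and none was higher, where 16.9% of 14775 genes were lower and 15% higher. The log2 level of Orm3 fell by 4.54 (standard error 0.234), that of Saa2 fell by 2.25 (standard error 0.384), that of Lcn2 fell by 2.23 (standard error 0.375), that of Orm2 fell by 2.19 (standard error 0.253) and that of Saa1 fell by 1.59 (standard error 0.464). The ranges of these 5 genes and of Apcs in replicates 1 to 3 lay wholly below the Bmal1+/+ ranges, as did those of 20.7% of all genes, and none lay wholly above, as 20.5% of all genes did. For Apcs the ranges nearly met, at 52.2 and 52.4 CPM. The log2 fold change was -0.43 for Apcs, -0.42 for Orm1, -0.60 for Saa4, -0.45 for Saa3 and 0.55 for Hp, none past the threshold. The median over the 10 genes went from 1.84 with all libraries (0.02 over all genes) to -1.10 without replicate 4 (0.02 over all genes). Leaving out replicate 1, 2 or 3 of the libraries labelled Bmal1-/- instead gave 2, 3 and 1 calls, all higher, among Saa1, Saa2 and Hp.

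**Figure D4:**
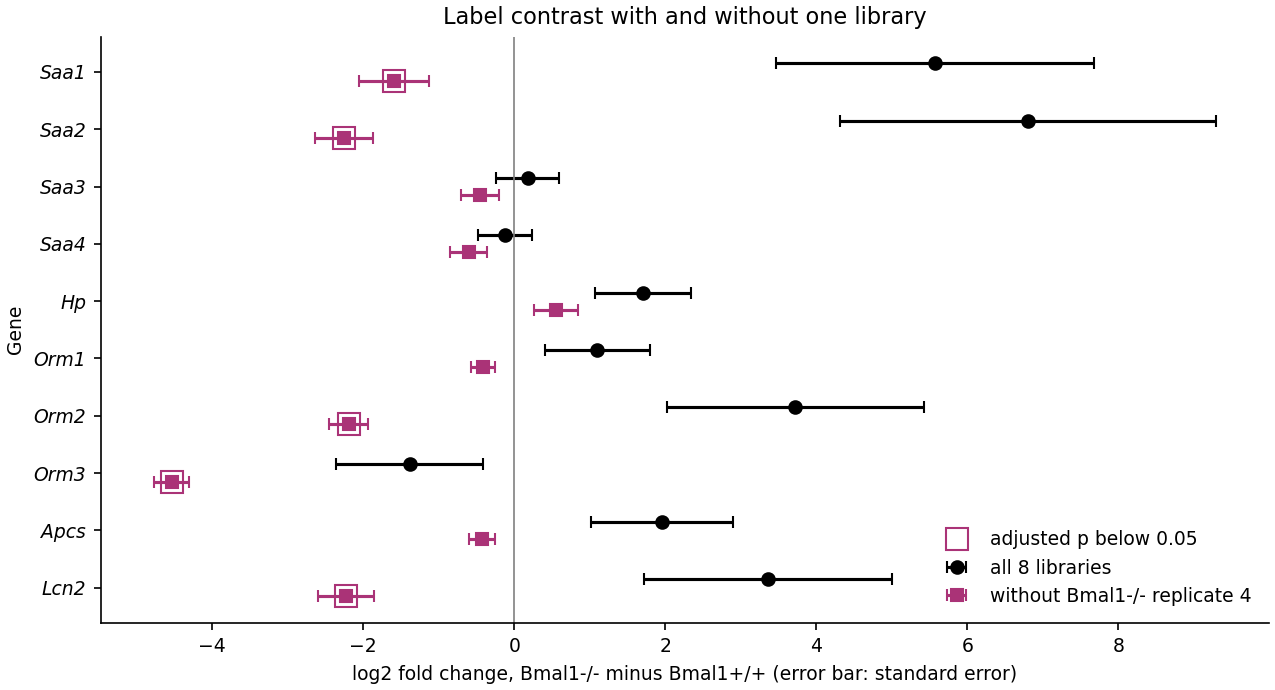
Fitted log2 fold change (libraries labelled Bmal1-/- minus Bmal1+/+) of the 10 genes with its standard error, from all 8 libraries (black circles) and without replicate 4 (purple squares). The standard error is derived from the F statistic of the test. Outlined squares have an adjusted p below 0.05 in edgeR's quasi-likelihood test, and they are Saa1, Saa2, Orm2, Orm3 and Lcn2, all at or below -1.59.

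Other acute-phase genes were read from the same fit of all 8 libraries, in which, as given above, 14.9% of all genes were higher and 16.2% lower. The counts in each list below are to be read against those shares. Of 27 further positive acute-phase genes with enough counts (Ptx3 had too few), 8 were higher and 3 lower in the libraries labelled Bmal1-/-, or 29.6% and 11.1% of the list, with a median log2 fold change of 0.41. The fibrinogen chains Fga, Fgb and Fgg, Cp (ceruloplasmin), Itih3, Serpina3n, Lbp (the lipopolysaccharide binding protein) and Lrg1 were higher, and Hamp (hepcidin), Vnn1 and Il1rn (the Il1 receptor antagonist) were lower. Lrg1 rose by 2.47 on the log2 scale and Itih3 by 1.96, and Vnn1 fell by 2.58 and Il1rn by 1.74. The same 8 genes were higher without replicate 4, and the lower genes then numbered 10, with Fgl1, Itih4, Serpina3m, Cd14, Slc39a14, Mt1 and Mt2 added. In replicate 4, 18 of the 27 stood at least 2-fold above the other 3 libraries of the label and 1, Angptl4, stood below, with a median deviation of 1.45 against -0.01 over all genes and 4.62 for the 10 genes above. Among these the metallothionein Mt2 had 35.9, 13.9, 59.6 and 1375 CPM in the libraries labelled Bmal1-/-, against 119 to 347 CPM in Bmal1+/+ libraries. Fgl1 had 53.0, 92.3, 104 and 1723 CPM, against 211 to 359 CPM, and Cd14 had 3.37, 1.801, 1.57 and 17.1 CPM, against 9.54 to 15.2 CPM. Replicates 1 to 3 of these 3 genes lay below the Bmal1+/+ range and replicate 4 above it. The same held for Saa1, Saa2, Orm2, Orm3, Lcn2 and, narrowly, Apcs. Other genes of this list did so too, among them Mt1, Itih4 and C3.

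Negative acute-phase proteins are those whose plasma amount goes down. Of 14 such genes 2 were higher and 5 lower in the libraries labelled Bmal1-/-, with Alb (albumin) lower by 2.10 and Serpina6 (corticosteroid binding globulin) lower by 4.06 on the log2 scale, and Apoa1 higher by 1.58. In replicate 4 none of the 14 stood at least 2-fold below the other 3 libraries, and the median deviation was -0.25. Ttr (transthyretin) had 3708, 4315, 5364 and 2364 CPM in the libraries labelled Bmal1-/-, lowest in replicate 4, and Rbp4 had 2254, 2183, 2357 and 1430 CPM. Trf (transferrin) went the other way, with 6390, 6075, 5346 and 20280 CPM.

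**Figure D5:**
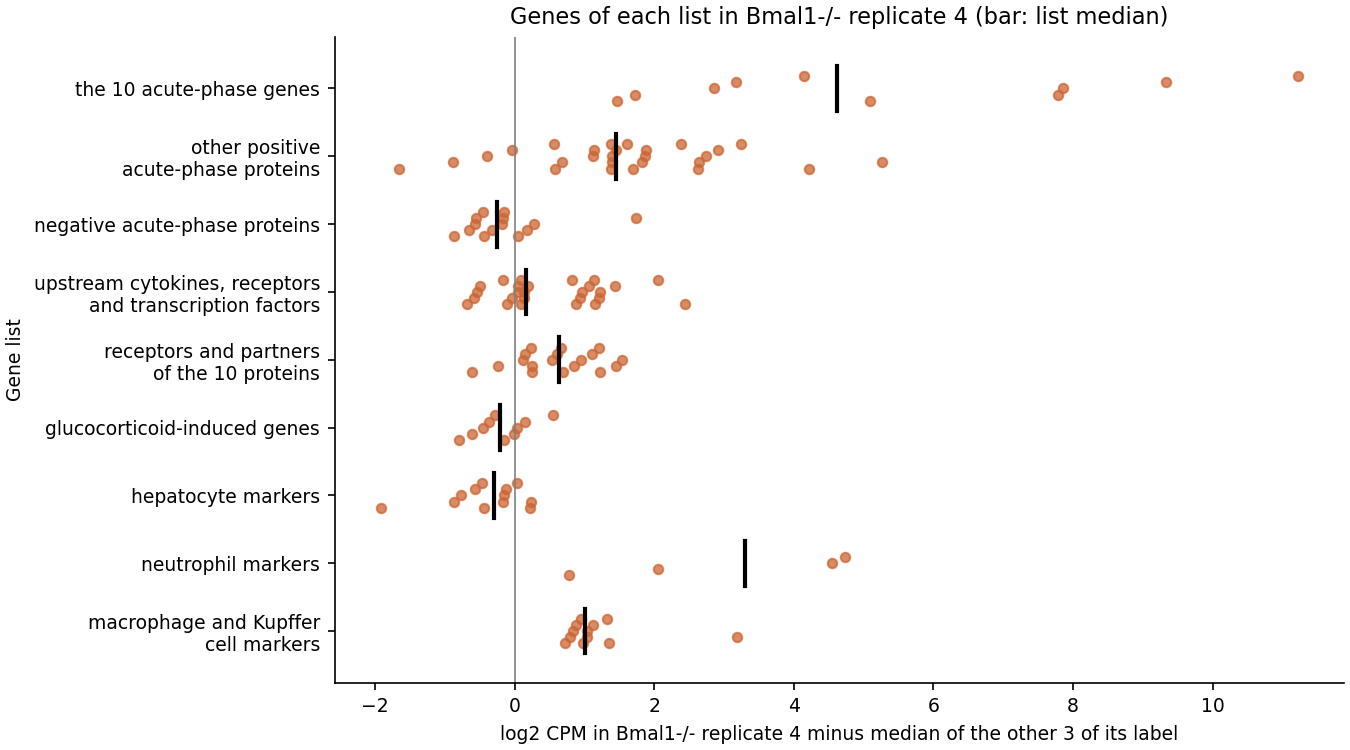
Log2 CPM in replicate 4 of the libraries labelled Bmal1-/- minus the median of the other 3 libraries of the label, for each tested gene (point) of 9 lists, with the list's median as a bar. The medians are 4.62 for the 10 acute-phase genes, 1.45 for the other positive acute-phase genes and -0.25 for the negative ones.

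Of 26 cytokines, receptors and transcription factors upstream of these genes that had enough counts, 1 was higher (Il1r1, the type of Il1 receptor that signals) and 7 lower, among them Il1a, Il1b and Nfkbiz, an NF-kB cofactor. Il6, Tnf, Osm and Lif had too few counts for the test. In replicate 4 of the libraries labelled Bmal1-/-, 4 of the 26 stood at least 2-fold above the other 3, with Tifa at 48.5 CPM against 7.62 to 9.61 CPM, Osmr (the oncostatin M receptor) at 13.9 CPM against 3.32 to 6.31 CPM, Stat3 at 255 CPM against 112 to 120 CPM and Nfkbiz at 11.6 CPM against 3.56 to 5.54 CPM. Socs3, a target of STAT3, had 5.06, 15.6, 11.2 and 26.2 CPM. The median deviation of the list was 0.16. Of 10 glucocorticoid-induced genes, 2 were higher (Klf9 and Cdkn1a) and 1 lower (Fkbp5) in the libraries labelled Bmal1-/-, near the shares over all genes, and 0 stood apart in replicate 4.

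Of 18 receptors and partners of the proteins with enough counts, 1 was higher (Scarb1, the high-density lipoprotein receptor, by 1.21 on the log2 scale) and 8 lower, among them Cd36 by 2.17, Tlr4 by 1.53 and P2rx7 by 1.32, all of which are described as interacting with serum amyloid A. The others were Fcgr2b and Fcgr3 and the hemoglobin genes Hba-a2, Hbb-bs and Hbb-bt. In the same fit 11 of 12 macrophage and Kupffer cell markers were lower too, and their part in this count was not tested. Without replicate 4 the lower genes were 13. In replicate 4, Hmox1 (heme oxygenase, which degrades heme) stood above at 43.2 CPM against 14.4 to 14.96 CPM, as did Tlr2 at 4.14 CPM against 1.07 to 1.59 CPM. Cd163, the scavenger receptor for haptoglobin bound to hemoglobin, had 43.2, 30.6, 21.4 and 71.0 CPM in the libraries labelled Bmal1-/-, against 44.3 to 48.8 CPM in Bmal1+/+ libraries.

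Markers of other cell types moved with replicate 4 too. Neutrophils also make Lcn2, and of 14 neutrophil markers 4 had enough counts, of which 3 stood above, S100a8 and S100a9 at 15.2 CPM each and Csf3r at 7.80 CPM. The summed level of the 14 was 63.8 CPM in replicate 4, 6.33 to 7.62 CPM in the other 3 libraries of its label and 9.03 to 12.5 CPM in Bmal1+/+ libraries, and each of the 14 had its highest count of the 8 libraries there. Among the markers with too few counts for the test, Ngp had 67 counts in replicate 4 and at most 1 in any other library, Mpo 43 and at most 4, Elane 30 and at most 1, Ltf 35 and at most 11, and the defining marker Ly6g 3 and at most 1. Of 12 macrophage and Kupffer cell markers, 11 were lower in the libraries labelled Bmal1-/- and 4 (Marco, Vsig4, Timd4 and Cd5l) stood above in replicate 4, with a summed 695 CPM against 342 to 387 CPM in the other 3 and 776 to 977 CPM in Bmal1+/+ libraries. Of 12 hepatocyte markers, 0 stood above in replicate 4 and 1, Fabp1, stood below, with 253 CPM against 804 to 1274 CPM, and the summed level was 50241 CPM against 61287 to 66373 CPM in the other 3. The summed level was 126 CPM for fibroblast, 236 CPM for endothelial and 17.3 CPM for lymphocyte markers in replicate 4, each within the range of Bmal1+/+ libraries and the other 3 together, and 375 CPM for epithelial markers, above the 193 to 262 CPM of the other 7. Krt8 (215.5 CPM) and Krt18 (138.5 CPM), keratins that hepatocytes also express, made up most of that sum. Of the 5 epithelial markers tested, 0 stood above in replicate 4 and 1, Epcam, stood below, with 0.136 CPM against 0.554 to 0.999 CPM in the other 3 of the label. The part of these cells in the levels of the 10 genes was not tested.

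The genes most like the 10 in pattern were found by the Pearson correlation with their mean label-centred log2 CPM over the 8 libraries, among 3692 other genes. These had a mean of at least 1 CPM and a range of at least 2-fold within a label. A high level in replicate 4 alone could meet that range, so a high r over the 8 libraries is partly built in. The first 10 were Hpx, Pros1, Itih4, Serping1, Isyna1, Serpina3n, Slc37a1, Fndc3b, Slc13a3 and Mir682, with r between 0.985 and 0.998. All points share the one library with high values, so r was also taken over the 7 libraries without it. It was then 0.88 for Hpx (hemopexin, which binds heme), 0.82 for Serpina3n and 0.79 for Pros1 (protein S), but 0.09 for Isyna1 and -0.57 for Mir682. In replicates 1 to 3 of the libraries labelled Bmal1-/-, Mir682 had 0.0625 to 0.0712 CPM, under the detection floor, which limits both of its correlations. Hpx had 2541 to 3285 CPM in Bmal1+/+ libraries and 2973, 2728, 2682 and 16940 CPM in the libraries labelled Bmal1-/-. Isyna1, the inositol phosphate synthase, had 4.67 to 5.91 CPM and 3.31, 4.02, 3.98 and 58.8 CPM in the same order. Each of the 10 acute-phase genes was also correlated with the mean of the others of the group over these 7 libraries. This r was 0.90 for Saa2, 0.78 for Saa3, 0.71 for Saa1 and 0.62 for Saa4. It was 0.34 for Lcn2, 0.30 for Orm2, 0.20 for Orm1, 0.06 for Hp, -0.11 for Orm3 and -0.39 for Apcs.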

How the data were processed

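RNA sequencing data from 8 libraries (4 per label) were analysed. Reads were aligned by the authors to GRCm38 in HISAT2 and fragments on each gene were counted in StringTie. The deposited counts are raw whole numbers. The authors also deposited FPKM values, scaled to gene length and library size. The submitters' processing notes instead name TopHat2 2.0.6 and CASAVA 1.8. Use of strand is not given in the sources used here. Of the gene identifiers, 99.4% matched a symbol.

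From the counts, TMM-normalized CPM and the quasi-likelihood test were computed with edgeR 4.0.16 in R 4.3.3 (filterByExpr, prior count 0.125, Benjamini-Hochberg adjustment over 14353 genes, common dispersion 0.0506). Samples were grouped by the genotype label, with the Bmal1-/- sample titled with another number used as replicate 4, as its description states. Whether each library came from a separate mouse is not given in the sources used here, so p-values measure only the spread between these samples, which may be technical. A gene stood above or below in a library when it was at least 2-fold above the highest or below the lowest of the other 3 of the label. The 10 genes and all lists were chosen with earlier results of these data known. Named are the 10 genes, in each other list the 4 largest fold changes with adjusted p below 0.05 and the 4 largest deviations of replicate 4, the 10 most similar genes, and the label checks; other names were chosen after their values were seen. Not every gene the rule names is described, and Alb, Apoa1, Ttr and Tat are in more than 1 list. Alternatives were DESeq2 1.42.0, limma-voom (limma 3.58.1), 2 normalizations, a prior count of 2, 2 other filters, the replicate number as a block and each library left out. The label test was run on simulated counts in which all libraries of a label changed alike. It was not tried on counts with a single extreme library in a label. The rule for standing above was run on simulated counts raised in a single library. Libraries were not duplicates, with a chi-square per degree of freedom of at least 18.0 between libraries of 1 label. Promoters and alignments were handled with Biopython 1.88 and figures drawn with matplotlib 3.10.9 in Python 3.11.15.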

Additional observations from a re-analysis of the deposited data

Results flagged for a closer look

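In 6 of the 10 genes the library labelled Bmal1-/- replicate 4 lay so far above the nearest other library that the gap made up more of the range of the 4 libraries, in log2 CPM, than Dixon's 95% critical value for 4 values allows. The gap was 0.956 of the range for Orm3, 0.936 for Saa2, 0.927 for Saa1, 0.926 for Apcs, 0.924 for Orm2 and 0.835 for Orm1. For Lcn2 it was 0.782, for Saa3 0.688, for Hp 0.652 and for Saa4 0.428, all under the limit. No library of Bmal1+/+ passed it in any of the 10 genes, where the ratio was at most 0.758. Chance alone passes the limit in about 1 of 20 groups, and the 10 genes were selected on this spread, so the 6 ratios are a description.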

How the results depend on the processing

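The counts of all genes called in each direction stayed within 1.5 times under every alternative, as did the number of the 10 genes standing above in replicate 4 of the libraries labelled Bmal1-/- (9 under each of 4 scalings). The number of the 10 called between labels was 1 with limma-voom and 0 to 5 when single libraries were left out. Left-out libraries gave 5 to 18 calls among other positive acute-phase genes (11 with all), 7 to 14 among receptors and partners (9 with all) and 6 to 9 among upstream genes (8 with all). The replicate numbers did not pair the samples (correlations of deviations -0.01 to 0.06). With them as a block, 6 positive acute-phase genes and 5 upstream genes were called, and the fold change turned negative for Saa1 (-0.55), Saa2 (-1.14), Saa3 (-0.0065), Orm2 (-0.98) and Lcn2 (-1.14). With limma-voom it was 0.90 for Saa1 (5.57 in edgeR), 0.61 for Saa2 (6.80 in edgeR), 0.35 for Orm1 (1.10), 0.63 for Apcs (1.96), -3.24 for Orm3 (-1.38), -0.31 for Saa4 (-0.12), -0.0222 for Saa3, -0.20 for Orm2 and -0.46 for Lcn2. Over the left-out libraries the log2 fold change ran from -1.59 to 6.13 for Saa1, -2.25 to 7.22 for Saa2, -0.45 to 0.40 for Saa3, -0.60 to 0.11 for Saa4, -0.42 to 1.41 for Orm1, -2.19 to 4.14 for Orm2, -0.43 to 2.32 for Apcs and -2.23 to 3.78 for Lcn2. The low end is the fit without replicate 4 in each of these genes, and the cause of the other shifts was not tested. DESeq2 gave no adjusted p for 7 of the 10 genes. Counts of 10 to 13 limit Orm3, and of 25 to 104 Saa3.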
